A study of Mus musculus with 6 samples.

Results

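The 34 genes described here act in G2 and mitosis, and all 34 were found by symbol among the 20822 genes of a single-cell count table. They were chosen by name, with earlier results of these data known, and fall into 7 roles. These are the mitotic CDK with its cyclins (5 genes), mitotic kinases and the spindle checkpoint (6), the anaphase-promoting complex (2) and the kinetochore (6). The others are the spindle and its motors (5), cytokinesis (5) and chromosome structure (5). The cells came from P14 mouse retinas in oxygen-induced retinopathy (OIR), a model in which high oxygen closes immature retinal vessels and the return to room air drives regrowth and pathological vessel tufts. Dissociated cells were enriched with beads against CD31, an endothelial surface protein, and profiled by Drop-Seq, which counts molecules (UMIs) near the 3′ end of each transcript in each droplet barcode. Wildtype C57BL/6J mice (eNOS+/+, 3 replicates) were compared with mice homozygous for a knockout of Nos3 in all their cells (eNOS-/-, 3 replicates). Both groups went through OIR, and each replicate was a pool of several retinas, so the spread between replicates is that between pools and not between animals.

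The 6 replicates held 8944 barcodes and 10361314 UMIs, from 617246 to 3350799 UMIs per replicate, with a median of 408 to 778 UMIs per barcode in each. By the cell labels that the authors deposited, 5925 barcodes were endothelial cells (ECs), of which 1162 were Proliferative, 3335 Structural and 1428 Tip ECs. A panel of 8 EC markers summed to between 6043 and 9415 UMIs per 1000000 UMIs of a sum (CPM) in the 18 sums of an EC label and a replicate. Mural cell markers summed to 3868 CPM in the Structural ECs of eNOS-/- replicate 3 and to between 32.3 and 173 CPM in those of the other replicates. Nos3 UMIs did not separate the groups (19.4, 36.6 and 23.6 CPM in the ECs of eNOS+/+ replicates, 21.2, 16.1 and 32.8 CPM in those of eNOS-/-) and so do not check the genotype labels. Many barcodes had a near copy: 3929 differed by 1 base from another barcode of the same replicate, and linking such barcodes left 6130 families. Of the families, 87 held both a Proliferative and a Structural EC barcode. Replicates of the same genotype shared 0 barcodes.

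A cell that has copied its DNA enters mitosis when Cdk1, bound to cyclin A or B, becomes active. Aurora and Polo-like kinases and the motor proteins then build the spindle, kinetochores attach chromosomes to it, and the checkpoint holds the cell until the anaphase-promoting complex, with its activator Cdc20, marks cyclin B for destruction. In the retina regrowing after OIR, new vessel is made by dividing ECs behind non-dividing tip cells, and pericytes divide to cover it.

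Many G2 and mitosis genes share 2 promoter elements, the cell cycle genes homology region (CHR), read by the MuvB complexes, and CCAAT boxes, bound by NF-Y. RefSeq windows on GRCm38.p6 were at hand for 30 of the 34 genes, not for Aurkb, Smc4, Tpx2 or Ccna2. The 250 bases before the start were searched. The windows of 1 chromosome, which holds none of the 34 genes, were left out. TTTGAA or TTCGAA on either strand was present in 13 of 32 member windows (40.6%) and in 17.1% of all 32851 windows. Ect2 and Prc1 had 2 windows each. CCAAT on either strand was present in 26 of 32 (81.2%) and in 33.8% of all windows. Both were present in 13 of 32 (40.6%), belonging to 12 genes, and in 6.02% of all windows, and no CHR match overlapped a CCAAT match in a member window. A match is a run of letters and not a tested site. The 4 windows printed here belong to the genes with both elements and the highest mean CPM in Proliferative ECs, and show how the elements are spaced. Each runs 5′ to 3′ on the gene's strand and ends 1 base before the start, with CHR and CCAAT letters of either strand in capitals. They are Hmgb2 (chr8:57511593-57511842, plus strand), Top2a (chr11:99024190-99024439, minus), Mki67 (chr7:135716380-135716629, minus) and Smc2 (chr4:52438971-52439220, plus).
Hmgb2: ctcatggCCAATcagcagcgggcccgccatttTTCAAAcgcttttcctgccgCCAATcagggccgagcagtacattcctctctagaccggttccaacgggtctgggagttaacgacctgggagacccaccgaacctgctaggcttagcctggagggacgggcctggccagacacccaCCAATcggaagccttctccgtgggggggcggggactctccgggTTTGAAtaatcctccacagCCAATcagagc
Top2a: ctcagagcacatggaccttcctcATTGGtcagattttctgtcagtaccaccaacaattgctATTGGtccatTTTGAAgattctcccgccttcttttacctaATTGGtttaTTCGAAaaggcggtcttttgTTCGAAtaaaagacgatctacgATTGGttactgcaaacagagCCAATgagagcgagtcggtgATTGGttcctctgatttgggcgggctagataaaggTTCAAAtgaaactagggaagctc
Mki67: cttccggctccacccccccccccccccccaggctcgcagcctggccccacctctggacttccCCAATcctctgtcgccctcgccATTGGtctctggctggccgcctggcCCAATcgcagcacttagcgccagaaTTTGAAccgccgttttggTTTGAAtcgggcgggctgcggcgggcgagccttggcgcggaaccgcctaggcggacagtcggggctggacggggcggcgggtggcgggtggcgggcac
Smc2: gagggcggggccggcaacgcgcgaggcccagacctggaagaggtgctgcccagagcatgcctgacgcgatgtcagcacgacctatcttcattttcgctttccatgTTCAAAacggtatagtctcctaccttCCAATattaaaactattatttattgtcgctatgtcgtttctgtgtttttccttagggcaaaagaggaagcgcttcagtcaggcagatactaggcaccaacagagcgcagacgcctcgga
Top2a held 4 CHR and 6 CCAAT matches, Hmgb2 2 and 4, Mki67 2 and 3, and Smc2 1 of each. The CHR match nearest the start began 23 bases before it in Top2a, 30 in Hmgb2, 98 in Mki67 and 145 in Smc2.

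All 34 genes had their highest mean CPM among the EC labels in Proliferative ECs, and all 34 were higher on average in Structural than in Tip ECs. Together they summed to 9263 ± 2219.9 CPM (SD, n = 6 replicates) in Proliferative, 2116 ± 898 in Structural and 824 ± 228 in Tip ECs. In Proliferative ECs the sums were 11876, 8641 and 8913 CPM in the eNOS+/+ replicates and 10300.1, 10438 and 5409.8 CPM in the eNOS-/- replicates. In Structural ECs they were 3766, 1697 and 1442 against 1937, 1389 and 2467 CPM, and in Tip ECs 461, 962 and 926 against 716, 766 and 1115 CPM. No replicate's Structural sum reached any replicate's Proliferative sum. Within a replicate the Proliferative sum was 2.19 to 7.51 times the Structural one (mean 4.91 ± 1.95), lowest in eNOS-/- replicate 3 and next lowest, at 3.15, in eNOS+/+ replicate 1. The EC labels were drawn from the same UMIs, so these differences describe the labels and were not tested. A CPM also does not separate more barcodes with a gene from more molecules per barcode.

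**Figure D1:**
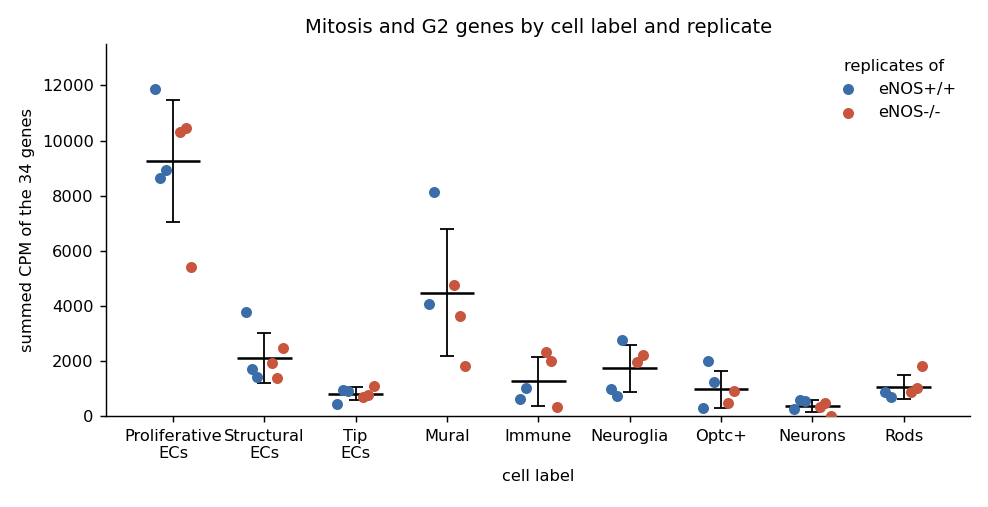
Summed CPM of the 34 mitosis and G2 genes (y axis) by cell label (x axis), 1 point per replicate with at least 10 barcodes of that label, blue for eNOS+/+ and red for eNOS-/-, with the mean (line) and SD (bar). Proliferative ECs sit between 5409.8 and 11876 CPM and Mural cells come next, from 1814 to 8120.2 CPM.

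By gene, 29 of the 34 were higher in Proliferative than in both other EC labels in 6 of 6 replicates. The other 5, Plk1, Bub1b, Cenpf, Prc1 and Anln, were so in 5 of 6, and for each the exception was eNOS-/- replicate 3. That replicate's Proliferative ECs were 35 barcodes with 78192 UMIs, in which Plk1 at 12.8 CPM was 1 UMI. Over the mean CPM of the 6 replicates, the Proliferative level was 2.33 (Smc4) to 7.29 (Ccnb1) times the Structural level, with a median of 5.12. Because the reads are 3′ tags and lengths were not used, the CPM of different genes are not compared as levels, and mean CPM only decided which genes are shown.

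Among the CDK and cyclin genes, the ratio of Proliferative to Structural ECs ran from 4.24 in Ccnb2 to 7.29 in Ccnb1. Cks2, a small subunit that docks on CDKs, was at 256, 252 and 343 CPM in the Proliferative ECs of eNOS+/+ replicates and at 259, 296 and 371 CPM in those of eNOS-/-. Its means were 296 ± 50.5 CPM in Proliferative, 69.7 ± 37.1 in Structural and 27.1 ± 13 in Tip ECs (SD, n = 6). It did not follow the dip of the summed level in eNOS-/- replicate 3, where it had its highest value. Ccnb1, cyclin B1, was at 111, 117 and 74.9 CPM against 79.3, 108 and 25.6 CPM, and did dip there. Its means were 86.0 ± 34.3, 11.8 ± 4.40 and 3.04 ± 5.64 CPM. Cdk1, the mitotic kinase itself, stood at 253 ± 60.3, 54.8 ± 24.3 and 30.6 ± 13.2 CPM.

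The kinase and checkpoint genes had ratios from 5.16 to 6.96. Birc5, or survivin, targets Aurora B to the centromere, and was at 343, 269.9 and 351 CPM in the eNOS+/+ and 419, 351 and 243 CPM in the eNOS-/- Proliferative ECs. Aurka, the kinase of centrosomes and spindle poles, was at 24.2, 31.5 and 67.0 CPM against 61.3, 60.8 and 25.6 CPM. For both genes the genotypes overlapped. Bub1, a checkpoint kinase, was at 116, 67.5 and 103 CPM against 126, 164 and 115 CPM. Aurkb had one of the narrowest spreads of the 34, 85.3 ± 13.5 CPM, and fell to 1.94 ± 3.02 CPM in Tip ECs, where 4 of 6 replicates had 0 UMIs.

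Both genes of the anaphase-promoting complex, Cdc20 (its activator) and Ube2c (its ubiquitin-conjugating enzyme), were highest in eNOS+/+ replicate 1 in Proliferative ECs. Cdc20 was at 343, 144 and 241 CPM in eNOS+/+ and 190.0, 216 and 166 CPM in eNOS-/- replicates. Ube2c was at 449, 229 and 323 CPM against 293, 302 and 153 CPM. In Structural ECs they averaged 31.6 ± 25.3 and 56.5 ± 33.3 CPM. The annotation places Cdc20 across Elovl1 and Ube2c across Tnnc2 on the other strand, and 4 more members overlap a coding gene of the other strand (Ccna2, Nusap1, Kif4 and Prc1). The strand setting of the counting is not given in the sources used here, so reads inside these overlaps could belong to either gene.

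Kinetochore genes had ratios from 3.88 (Nuf2) to 5.78 (Ndc80). Cenpe, a kinetochore motor that moves chromosomes to the spindle's middle, was at 391, 301 and 371 CPM in eNOS+/+ and 396, 357 and 76.7 CPM in eNOS-/- Proliferative ECs, the last in replicate 3. Ndc80, which grips the microtubule, was at 145, 126 and 67.0 CPM against 136, 145 and 102 CPM. Cenpa, the histone H3 variant of centromeres, averaged 176 ± 41.4, 41.5 ± 24.4 and 21.3 ± 24.1 CPM in Proliferative, Structural and Tip ECs. Spc25, a partner of Ndc80 and Nuf2 in the same complex, averaged 189 ± 46.7, 33.4 ± 19.7 and 8.87 ± 5.79 CPM in the ECs, and its level in glia is given with the other cell labels.

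Of the spindle genes, Nusap1, which bundles microtubules, was at 430, 252 and 308 CPM in eNOS+/+ and 308, 316 and 153 CPM in eNOS-/- Proliferative ECs. Kif4, a chromosome-bound motor, was at 91.8, 63.0 and 98.6 CPM against 108, 101 and 63.9 CPM. Kif11, the motor that pushes the spindle poles apart, had a Proliferative level at least 5.78 times the Structural one in every replicate, the highest such minimum of the 34 genes. Among the cytokinesis genes, Prc1, which bundles the central spindle, was at 430, 423 and 221 CPM against 372, 397 and 76.7 CPM. Ect2, the activator of RhoA at the cleavage site, was at 106, 40.5 and 82.8 CPM against 95.7, 82.8 and 25.6 CPM. Racgap1, which recruits Ect2, was even across replicates at 92.3 ± 10.6 CPM and did not dip in eNOS-/- replicate 3 (102 CPM).

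The chromosome structure genes divided into 2 kinds. Top2a, the topoisomerase that untangles sister DNA, and Mki67, which coats mitotic chromosomes, were low in Tip ECs, at 834 ± 212 and 574 ± 232 CPM in Proliferative ECs against 28.6 ± 18.4 and 19.1 ± 10.7 CPM in Tip ECs. Hmgb2, a DNA-bending protein, was at 1575, 1466 and 1380.3 CPM in eNOS+/+ and 1389.6, 1679.7 and 844 CPM in eNOS-/- Proliferative ECs, but still at 202 ± 55.5 CPM in Tip ECs. Smc2, a condensin subunit, was at 570.1, 387 and 383 CPM against 627, 573 and 205 CPM, with 56.8 ± 12.7 CPM in Tip ECs. Smc4, its condensin partner, kept 183 ± 42.2 CPM in Tip ECs. Smc4 and Hmgb2 together made up 22.4% of the 34 genes' UMIs in Proliferative ECs, 33.1% in Structural ECs, 48.1% in Tip ECs and 47.4% in rods. In Mural, Immune and Neuroglia barcodes the share was 22.9%, 18.7% and 13.2%. The Neuroglia share is lowered by Spc25, which alone made up 68.8% of the 34 genes' UMIs there.

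**Figure D2:**
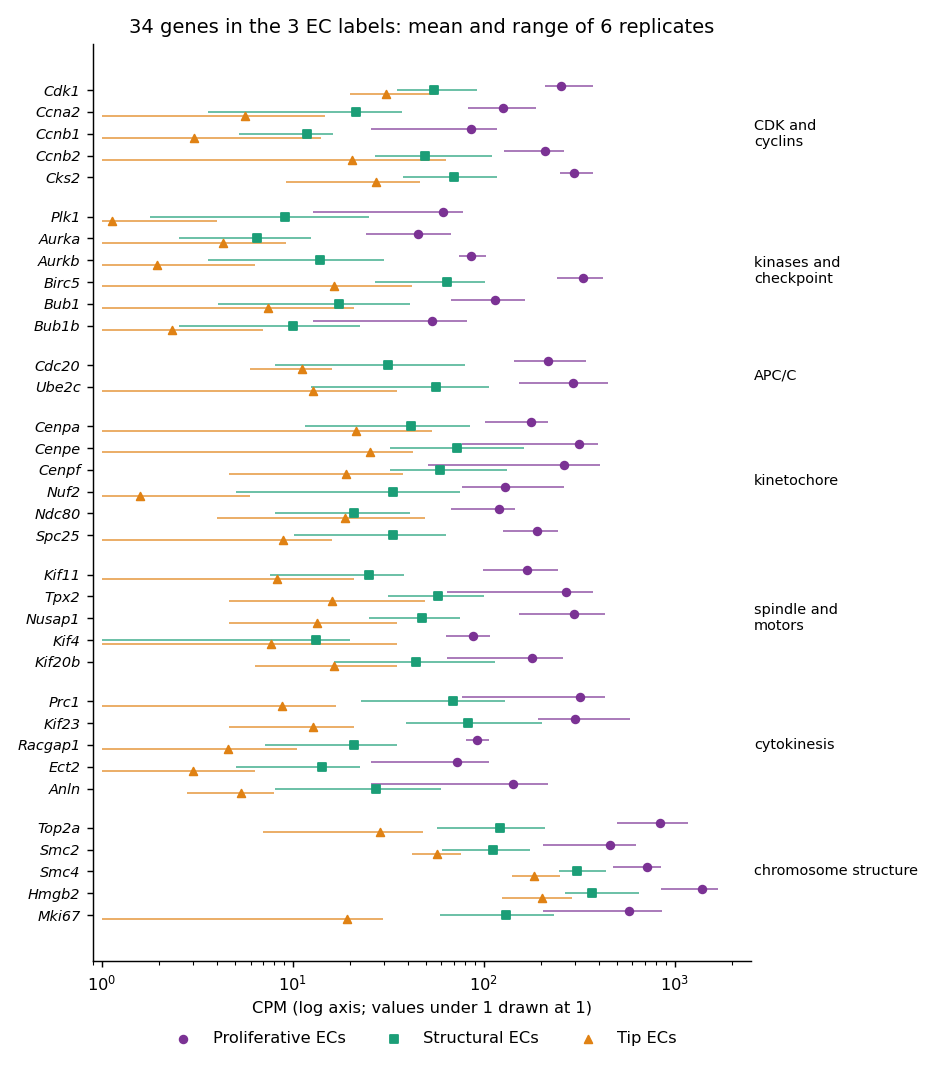
CPM (x axis, log) of each of the 34 genes in Proliferative (circles), Structural (squares) and Tip ECs (triangles), as the mean and the range of 6 replicates, grouped by role. Circles lie to the right of squares, and squares to the right of triangles, for all 34 genes. Values under 1 CPM are drawn at 1.

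Per barcode the genes were sparse. To set labels of different depth side by side, each barcode with at least 500 UMIs was thinned to 500, and barcodes with UMIs of at least 3 of the 34 genes were counted. The share was 70.9% of 807 Proliferative ECs (95% Wilson interval 67.7 to 73.9), 6.25% of 1647 Structural ECs (5.18 to 7.53) and 1.65% of 1091 Tip ECs (1.05 to 2.59). In cells that have left the cycle it was 1.19% of 421 rods (0.508 to 2.75) and 0 of 392 neurons (0 to 0.970). With barcodes of all replicates pooled, the Structural interval lay above both. The pooled Tip interval overlapped that of rods and lay just above that of neurons. With barcodes that differ in the last base merged, the Tip share was 0.720% (0.331 to 1.56). That interval overlapped those of rods (0.458 to 2.48) and neurons (0.0459 to 1.46). The 10 rod barcodes with at least 3 members before thinning had an EC marker sum of 4516 CPM and a rod marker sum of 11008 CPM, against 1216 and 39112 CPM in the other rods. The intervals cover counting error only, and those without merging count near-copy barcodes separately. The barcodes kept had median depths of 1698, 1332, 1356, 657 and 973 UMIs before thinning in Proliferative, Structural and Tip ECs, rods and neurons, and 355, 1688, 337, 1087 and 298 shallower ones were left out. Without thinning the shares of the 3 EC labels were 78.9%, 12.9% and 9.03%. By replicate, Proliferative ECs ran from 45.8% (11 of 24 barcodes, eNOS-/- replicate 3) to 82.2% (eNOS+/+ replicate 1). Structural ECs ran from 3.60% to 12.6%, with the same replicates, eNOS-/- replicate 3 and eNOS+/+ replicate 1 (11.9%), at the top. Tip ECs ran from 0 of 97 barcodes (eNOS+/+ replicate 1) to 5.26% (3 of 57, eNOS-/- replicate 3). That range holds the pooled shares of rods and neurons.

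**Figure D3:**
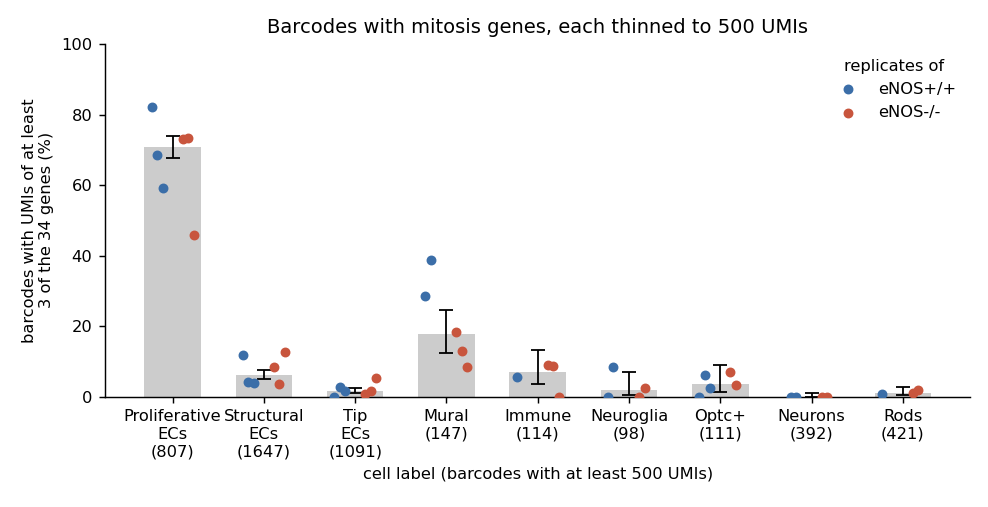
Percent of barcodes with UMIs of at least 3 of the 34 genes after thinning to 500 UMIs (y axis) by cell label (x axis, with the number of barcodes), as bars with 95% Wilson intervals and 1 point per replicate with at least 10 such barcodes. Proliferative ECs stand at 70.9%, Mural cells at 17.7% and rods at 1.19%.

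Single genes were seen in few barcodes even where the set was common. At 500 UMIs, Top2a had a UMI in 30.7% of Proliferative, 3.95% of Structural and 1.65% of Tip EC barcodes, against 2.38% of rods. Mki67 was seen in 26.4%, 3.52% and 0.733%, against 1.66% of rods. Hmgb2 was seen in 49.7%, 11.8% and 8.98%, against 7.84% of rods. In neurons, Top2a was seen in 0.510%, Mki67 in 0.765% and Hmgb2 in 2.55%. The Tip shares of Top2a and Mki67 were under those of rods and the Tip share of Hmgb2 just over it, but for Top2a and Hmgb2 they were above those of neurons. Few barcodes set these orders, which were not tested. Top2a was seen in 18 Tip, 10 rod and 2 neuron barcodes, and Mki67 in 8, 7 and 3. Ccnb1 was seen in 4.34% of Proliferative and 0.243% of Structural ECs, and in no rod.

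Structural ECs held 25.5% of the 34 genes' EC UMIs. The Structural label has 56.3% of EC barcodes, and the Proliferative label has 19.6% of barcodes and 68.4% of the UMIs. Only 77 Structural barcodes (2.31%), in 58 families and all 6 replicates, had UMIs of 10 or more of the 34 genes, and these carried 43.9% of the label's member UMIs. They were deep, with a median of 6561 UMIs against 474 in the other Structural barcodes, and their summed level was 7133 CPM against 1199 CPM. In Proliferative ECs 396 barcodes (34.1%) had 10 or more members, at 11461 CPM, with a median of 3005 UMIs. Structural barcodes with at least 3 members had an EC marker sum of 7682 CPM and a mural marker sum of 442 CPM, against 7774 and 285 CPM in those with fewer. B lineage markers (6 genes, among them Cd79a and Ighm) summed to 5.35 CPM in the barcodes with at least 3 members and to 347 CPM in those with fewer. Barcodes with 10 or more members were picked by their member UMIs, which raises their member share and level by construction. The part of depth in this pattern was not tested beyond the thinning above.

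Outside the ECs, Mural cells (pericytes and smooth muscle) stood out. Their 34 genes summed to 4069.9 and 8120.2 CPM in eNOS+/+ replicates 2 and 3 and to 4759, 3631 and 1814 CPM in eNOS-/- replicates 1 to 3, with eNOS+/+ replicate 1 left out for its 3 barcodes. The mean was 4479 ± 2309 CPM (SD, n = 5), and 17.7% of 147 barcodes (12.4 to 24.7) had at least 3 members at 500 UMIs. Top2a averaged 288 ± 132 and Mki67 295 ± 168 CPM. Cdk1 averaged 148 ± 51.7 CPM. The eNOS-/- replicates had 8.33% to 18.5% of such barcodes and the 2 eNOS+/+ replicates 28.6% and 38.9%, from 18 to 48 barcodes each, and with under 10 barcodes in 1 replicate no genotype test was run. The Mural barcodes with 3 or more members (65, in 41 families, without thinning) had an EC marker sum of 1789.6 CPM. It was 1702 CPM in Mural barcodes with fewer and 6723 CPM in the corresponding Proliferative ECs. The mural marker sum was 17818 CPM in Mural barcodes with 3 or more members against 30182 CPM in those with fewer. Per UMI of Cldn5 and Pecam1, a pair of EC genes, Mural barcodes held 5.10 member UMIs, Neuroglia 4.36 and Proliferative ECs 4.19. The Neuroglia value rests mostly on 1 gene, since 183 of the 266 member UMIs there were of Spc25. The other labels held from 0.247 (Tip ECs) to 2.14 (Optc+). Of the 228 UMIs of this pair in Mural barcodes, 184 were of Pecam1. The part of EC RNA in the Mural level was not tested.

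Immune cells (microglia and macrophages) summed to 1263 ± 874 CPM (SD, n = 5), with 7.02% of 114 barcodes (3.60 to 13.2) carrying at least 3 members at 500 UMIs. The 7 Immune barcodes with 10 or more members belonged to 3 families in 2 eNOS-/- replicates. Picked by their member UMIs, they held 46.2% of the label's member UMIs. With barcodes that have a neighbour 1 base away left out, the Immune level was 743 ± 363 CPM. Immune barcodes with 3 or more members had EC and mural marker sums of 4124 and 2736 CPM, against 1343 and 84.4 CPM in those with fewer. The part of these markers in the Immune level was not tested. Optc+ cells were at 986 ± 672 CPM (n = 5), rods at 1059.8 ± 434 CPM (n = 5) and neurons at 371 ± 218 CPM (n = 6).

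Neuroglia, the glial label, reached 1737 ± 853 CPM (SD, n = 5), and 1 member accounted for most of it. Spc25 (chromosome 2, 69193895 to 69206194, minus strand, GRCm38), singled out after its values were seen, was at 710.2, 287 and 1255 CPM in the Neuroglia of eNOS+/+ replicates and at 1599.9 and 1617 CPM in eNOS-/- replicates 1 and 2. Pooled, it stood at 1342 CPM in Neuroglia and 187 CPM in Proliferative ECs, while the other 33 genes summed to 609 CPM in Neuroglia and 9769.6 CPM in Proliferative ECs. It had a UMI in 71 of 184 Neuroglia barcodes (38.6%), up to 14 in 1 barcode, and in 3 of 1508 rods (0.199%). Of those 71 barcodes, 47 had no UMI of another member and 1 had 3 or more others. Of the 235 Proliferative EC barcodes with Spc25, 225 had 3 or more other members. Nuf2 and Bub1, among others, had 0 UMIs in every Neuroglia replicate.

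The Neuroglia barcodes with and without Spc25 both carried glial genes. Glul, glutamine synthetase, was at 7888 CPM in them and 4912 CPM in the other Neuroglia barcodes, and Rlbp1, a retinoid-binding protein of Müller glia, at 4722 against 3767 CPM. Gfap, the filament protein of astrocytes and reactive glia, was at 27.5 against 329.6 CPM. These are values of pooled barcodes with no test. In the annotation no gene overlaps Spc25, and the nearest coding gene, Nostrin, lies 4565 bases away.

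**Figure D4:**
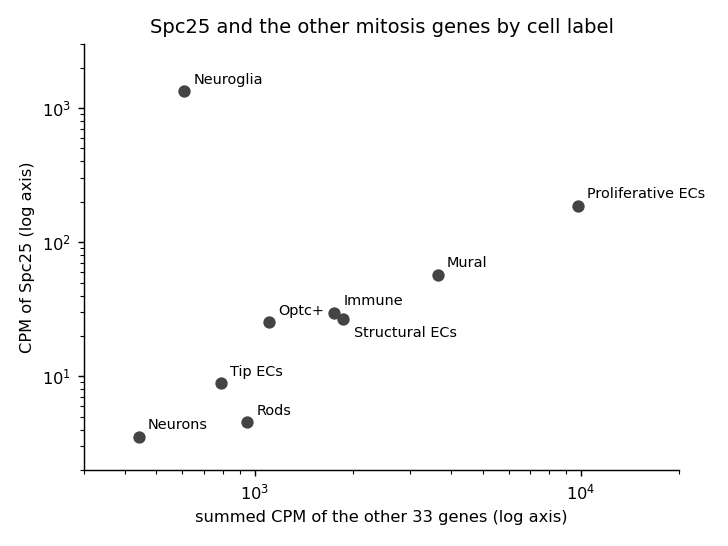
Pooled CPM of Spc25 (y axis, log) against the summed CPM of the other 33 genes (x axis, log), 1 point per cell label. Neuroglia stand at 1342 CPM of Spc25 and 609 CPM of the rest, higher in Spc25 than the other 8 labels shown.

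The authors' cell cycle phase call, which may rest on genes of this kind, put 67.0% of Proliferative ECs in G2/M, 30.6% in S and 2.41% in G1. It also put 21.4% of rods in G2/M, so the calls alone are not read as cycling. The members' levels in cells of each call are not compared, since the call itself may use such genes. In barcodes thinned to 1000 UMIs, 59.4% of 569 Proliferative ECs had UMIs of at least 3 members and of at least 2 of 34 DNA replication genes, 31.3% of members only and 7.56% of replication genes only. In 1050 Structural ECs these shares were 5.52%, 8.95% and 14.7%, and in 719 Tip ECs 0.417%, 3.06% and 12.5%. In 64 rods 21.9% passed for replication genes alone and none for members. Thinning is a random draw, and the draw used for the shares gave 1.56% of rods with at least 3 members.

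Companion lists of the cell cycle followed in part. The 34 DNA replication genes summed to 3146 ± 364 CPM in Proliferative, 1044 ± 118 in Structural and 662 ± 101 CPM in Tip ECs, with Pcna, the polymerase clamp (416 ± 164 CPM in Proliferative ECs), and Slbp, the histone mRNA binder (215 ± 40.7 CPM). A further 43 mitosis genes outside the 34 summed to 3704 ± 572, 1015 ± 249.8 and 506 ± 165 CPM, with Incenp (297 ± 98.7 CPM in Proliferative ECs) and Cdca8 (260.0 ± 36.9 CPM), both partners of Aurora B, as examples. The 19 G1 cyclins, CDKs and CDK inhibitors differed less, at 1631 ± 237, 1435 ± 165 and 1858 ± 165 CPM, with Cdkn1a (p21), an inhibitor of CDKs, at 827 ± 119 CPM in Tip against 377 ± 169 CPM in Proliferative ECs, and Cdk4 at 153 ± 25.4 against 247 ± 53.9 CPM. The 8 MuvB and DREAM subunits summed to 479.8 ± 44.9, 323 ± 22.4 and 265 ± 42.4 CPM, with Rbbp4 at 209.9 ± 56.6 and Tfdp2 at 87.3 ± 83.5 CPM in Proliferative ECs. The 15 subunits and regulators of the anaphase-promoting complex summed to 1435 ± 126, 1017 ± 26.5 and 875 ± 36.6 CPM, with Anapc5 at 201 ± 22.0 and Anapc13 at 175 ± 33.3 CPM. Genes outside the 34 were ranked by how closely their log2 CPM (with 10 CPM added) tracked the members' summed level. The ranking ran across the 50 sums of a label and a replicate, which share libraries and depth. Only genes with a mean of at least 50 CPM in Proliferative ECs entered, the EC label where the members are highest, which favours genes high there. The closest among these were Cdca8 (Pearson r 0.75), Cip2a (0.742), Ckap2l (0.733), Diaph3 (0.729) and Cks1b (0.723). Pimreg, Hmmr, H2afz, Cdca2 and Pclaf followed (0.714 to 0.70).

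Between genotypes no member passed the test in any EC label or in all ECs. UMIs were summed per replicate and compared in edgeR with the quasi-likelihood F test, p-values being adjusted over all genes tested by the Benjamini-Hochberg method. In all ECs 0 of 34 members were called at an adjusted p under 0.05, where 0.0211% of all 9483 genes were, and 2 had an unadjusted p under 0.05, where 5.78% of all genes did. In Proliferative ECs it was 0 of 34 (0.0217% of 4607 genes) and 1 by unadjusted p (6.38% of all), in Structural ECs 0 of 28 tested (0.0264% of 7577 genes) and 2 (5.52%), and in Tip ECs 0 of 6 tested (0.0181% of 5510 genes) and 0 (4.95%). DESeq2 on the same sums also called 0 in each. The 6 members under the count filter in Structural ECs and the 28 in Tip ECs have no test. Whether a member's genotype difference was unequal in Proliferative and Structural ECs was tested by an interaction term, with 0 of 34 called (0% of 7019 genes) and 0 by unadjusted p (3.26%). Without eNOS-/- replicate 3 it was 0 called and 13 by unadjusted p (4.24% of 8575 genes), and without eNOS+/+ replicate 3 it was 0 called and 7 (4.29% of 6647 genes). The median over the members was 0.26 on the log2 scale, 0.55 and 0.51 in those fits, and -0.22 without eNOS+/+ replicate 1 and -0.19 without eNOS-/- replicate 2, so that its sign turned with single replicates.

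The interval these data leave is not narrow. In Proliferative ECs the log2 fold changes, eNOS-/- over eNOS+/+, ran from -0.46 to 1.06 with standard errors of 0.24 to 0.44, and in Structural ECs from -1.09 to 0.64 with standard errors of 0.23 to 0.72. The median over the members was -0.05 in Proliferative ECs (0.02 over all genes) and -0.29 in Structural ECs (0.01 over all genes). Without eNOS+/+ replicate 1, whose Structural sum was the highest, the Structural median was 0.25, and without eNOS+/+ replicate 3 it was -0.65, so its sign rests on single replicates. B lineage markers in Structural ECs summed to 199.6, 56.7 and 47.9 CPM in eNOS+/+ and 312, 266 and 306 CPM in eNOS-/- replicates, which did not overlap. Mural markers there summed to 3868 CPM in eNOS-/- replicate 3, whose Structural member sum was 2467 CPM. In the other replicates they summed to between 32.3 and 173 CPM. The part of B lineage and mural RNA in the members' values was not tested.

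**Figure D5:**
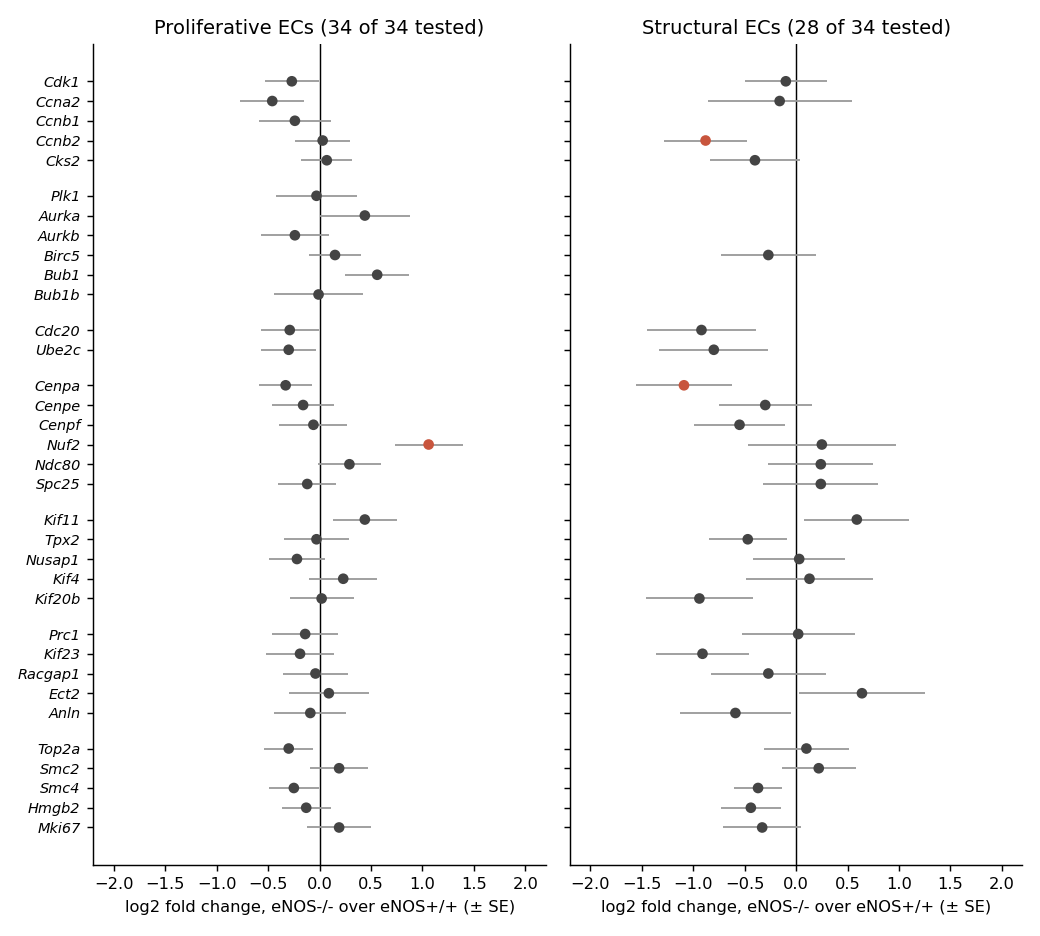
log2 fold change of each tested member, eNOS-/- over eNOS+/+ (x axis), with its standard error, in Proliferative (left) and Structural ECs (right), grouped by role. Red points have an unadjusted p under 0.05 (Nuf2, Ccnb2 and Cenpa), and none passed adjustment.

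The member closest to a call was Nuf2, part of the kinetochore's microtubule grip. In Proliferative ECs it was at 96.6, 85.5 and 90.7 CPM in eNOS+/+ and 166, 262 and 76.7 CPM in eNOS-/- replicates. Replicates 1 and 2 of eNOS-/- lay above all of eNOS+/+ and replicate 3 below. The log2 fold change of 1.06 had a standard error of 0.33 and an adjusted p of 0.445 in edgeR. Without eNOS-/- replicate 3 it was 1.24 and was called (adjusted p = 0.0104), and 73 of 5237 genes were called in that fit against 1 in the full one. Without eNOS-/- replicate 2 it was 0.61. In all ECs Nuf2 was at 53.4, 36.6 and 18.4 CPM against 62.2, 70.9 and 53.2 CPM, with 1 value of eNOS+/+ just above the lowest of eNOS-/-. The log2 fold change there was 0.86 with a standard error of 0.32 (edgeR adjusted p = 0.824).

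Bub1 in all ECs was at 40.0, 25.9 and 21.0 CPM in eNOS+/+ and 45.3, 49.9 and 47.1 CPM in eNOS-/- replicates. The groups did not overlap, but the share of all genes with such groups was not counted, so this is not read as a difference. The log2 fold change was 0.73 with a standard error of 0.28 (edgeR adjusted p = 0.824). In Proliferative ECs taken alone Bub1 had an unadjusted p over 0.05, and in Structural ECs it was under the count filter. In Structural ECs, Ccnb2, cyclin B2, was at 109.8, 40.5 and 42.8 CPM against 46.3, 26.8 and 29.9 CPM. The groups overlapped through eNOS-/- replicate 1, and the log2 fold change of -0.88 had a standard error of 0.40 (edgeR adjusted p = 0.869). Cenpa was at 84.8, 48.6 and 32.8 CPM against 34, 11.6 and 37.4 CPM, and eNOS+/+ replicate 3 lay below 2 of the eNOS-/- values. Its log2 fold change of -1.09 had a standard error of 0.47 (edgeR adjusted p = 0.868).

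None of the companion lists of the cell cycle held a called gene in any of these fits. Of the B lineage markers, 1 of 4 tested was called higher in eNOS-/- in all ECs and 1 of 4 in Structural ECs. Over all genes 1 was called higher in each of those 2 fits. Of the 34 DNA replication genes 24 were tested in Proliferative ECs, with a median log2 fold change of 0.02, and 0 had an unadjusted p under 0.05. Of the 43 other mitosis genes 32 were tested there, with a median of 0.03 and 1 of unadjusted p under 0.05. In Structural ECs 21 and 22 genes of these lists were tested, with medians of -0.06 and -0.14. The G1 list had 8 of 19 tested in Proliferative ECs (median 0.10), the MuvB and DREAM list 4 of 8 (-0.12) and the anaphase-promoting complex list 12 of 15 (-0.16).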

How the data were processed

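Single cells of CD31-enriched P14 OIR retinas were profiled by Drop-Seq in 3 eNOS+/+ and 3 eNOS-/- replicates. The authors' processing notes name GRCm38. The authors filtered and labelled the cells (Seurat 3 is named in their processing notes), and deposited UMI counts without normalization. The deposited annotation gives each barcode's replicate, genotype, cell label and phase, and its mitochondrial UMIs in percent. The annotation counted on and the strand setting are not given in the sources used here. Samples were grouped by the genotype in their labels.

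UMIs were summed per cell label and replicate, and CPM are UMIs per 1000000 of a sum. All deposited barcodes were kept and no doublet caller was run. Sums of fewer than 10 barcodes entered no mean. Genotypes were compared with edgeR 4.0.16 (filterByExpr, TMM, quasi-likelihood test, Benjamini-Hochberg adjustment over all genes, threshold 0.05), tested on simulated data, with DESeq2 1.42.0 as an alternative, in R 4.3.3. Shares and thinning were computed in Python 3.11.15 (pandas 2.3.3, scipy 1.17.1, numpy 2.4.6), and matplotlib 3.10.9 drew the figures. Per-replicate values are given for the members of highest and lowest mean CPM in Proliferative ECs in each role and for those with an unadjusted p under 0.05 in a genotype fit, and others were named after their values were seen. The members and lists were chosen with earlier results of these data known.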

Additional observations from a re-analysis of the deposited data

How the results depend on the processing

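With DESeq2, scaling by RLE, all genes kept without a count filter, barcodes with at least 500 UMIs, mitochondrial genes left out, and barcodes with no neighbour 1 base away (chosen after seeing the data), 0 members were called in each EC fit and for the unequal difference. With each replicate left out in turn, 0 to 1 members were called in Proliferative ECs and 0 elsewhere. Same-numbered samples deviated together with correlations of -0.08 to 0.13, not every sample was closest to its own number, and the numbers were not taken as pairs. With the replicate number as a block, 0 members were called in each fit, and the genes called over the whole table went from 2 to 2 in all ECs, 1 to 1 in Tip, 2 to 11 in Structural and 1 to 3 in Proliferative ECs. No filter gave 84, 8, 74 and 10 genes called in these fits, with the cause not tested. The median over the members changed sign with single replicates, from -0.39 to 0.19 in all ECs, from -0.23 to 0.12 in Proliferative ECs and from -0.22 to 0.55 for the unequal difference. For the latter it was also -0.06 with only barcodes that have no neighbour 1 base away, where 3 of 32 members had an unadjusted p under 0.05 (2.84% of 4298 genes).

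Shares of barcodes with members moved with depth and with the number of members asked for, as their construction sets. Thinning to 300 UMIs gave 47.2% in Proliferative ECs, and to 1000 UMIs 89.8% in Proliferative, 14.2% in Structural and 4.17% in Tip ECs and 12.5% in Immune cells. Asking for 2 members gave 85.7%, 15.4% and 5.22% in the 3 EC labels, and asking for 5 gave 37.4% in Proliferative and 1.82% in Structural ECs. Without thinning, Structural ECs were at 12.9%, Tip ECs at 9.03% and Mural cells at 30.4%. Merging barcodes that differ in the last base gave 70.3%, 6.02%, 0.720% and 21.7% in Proliferative, Structural and Tip ECs and Mural cells. It gave 1.07% in rods and 0.260% in neurons. Summed levels and their ratio moved by less than 1 SD of the replicates under every alternative in the EC, Mural and Immune labels. Leaving out 1 replicate cannot move a mean by that much, so those alternatives could not fail. Wide SDs also make the rule lenient. The Immune level of 743 CPM without neighbouring barcodes passed against 1263 ± 874 CPM. In Tip ECs 28 of 34 members were under the count filter, and with all genes kept 0 members were called there. At 300 and 1000 UMIs the Tip share of barcodes with at least 3 members was 0.465% and 4.17%, that of rods 0% and 1.56% and that of neurons 0% and 0.529%.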
